A study of Mus musculus with 7 samples.

Results

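The immunity-related GTPases (IRG family) were followed through subcutaneous Lewis lung carcinoma tumours of mice given Ze-qi decoction and of untreated mice. The members were taken by symbol and are Irgm1, Irgm2, Igtp, Iigp1, Tgtp1, Tgtp2 and Ifi47. Each symbol matched 1 Ensembl gene identifier, so the family makes up 7 of the 32212 genes in the files. All 7 passed the filter on low values (FPKM of 0.5 or more in 3 or more libraries), as did 14838 genes in all. FPKM is the number of reads counted for a gene, scaled by gene length and by the total of counted reads in the library.

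RNA was sequenced from bulk tumours of wild-type C57BL/6J mice, into which LLC cells, a transplantable mouse lung carcinoma line, had been injected at the right axilla at 6 weeks of age. The ZQD group (3 libraries) received the high dose of the decoction, a herbal preparation, at 42.67 g/kg, and the control group (4 libraries) bore the same tumours and was not treated. Mice were assigned to groups 3 days after injection, 8 to a group. The labels give day 22 for euthanasia and, separately, day 21 after treatment for the sequenced tumours. The series asks how the decoction alters gene expression in the tumour, and its title names neutrophil extracellular traps. Whether each library came from a separate mouse is not stated, so the spread behind every p-value is that of these libraries and may be partly technical. The cell type label reads tumour cell, whereas the material was whole tumour tissue. Vim, a mesenchymal filament gene, lay at 482.7 to 524.2 FPKM in ZQD and 459.8 to 703.9 FPKM in control, whereas the epithelial genes Krt7, Krt8, Krt18 and Epcam were too low to pass the filter. The epithelial cadherin gene Cdh1 passed it, at 0.622 to 0.981 FPKM in ZQD and 0.551 to 1.26 FPKM in control.

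IRG proteins are GTPases made in response to interferons. In mouse cells infected with vacuole-dwelling parasites or bacteria, effector members gather on the vacuole membrane and disrupt it, and regulatory members sit on the cell's own membranes and hold the effectors inactive there. Interferon gamma signals to gamma-activated sequences (GAS) in promoters, and type I interferons signal mainly to interferon-stimulated response elements (ISRE), through a complex that includes STAT2 and IRF9. Irgm1, Irgm2 and Igtp (also called Irgm3) are the regulatory members, and Iigp1 (Irga6), Tgtp1 and Tgtp2 (both Irgb6) and Ifi47 (Irgd) are effectors of the GKS type.

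The difference that names the 2 subfamilies lies in the nucleotide-binding loop, where regulatory members carry methionine (GMS) and the others lysine (GKS). The codon was found in GENCODE M21 transcripts for all 7 members, as methionine in the 3 regulatory members and lysine in the 4 GKS members. The coding bases around it are shown for 6 members because they separate the regulatory from the effector genes, with the codon of that residue in capitals and 48 bases each, 5′ to 3′.
Irgm1: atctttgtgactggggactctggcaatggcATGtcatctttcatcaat
Irgm2: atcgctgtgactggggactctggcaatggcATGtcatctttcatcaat
Igtp: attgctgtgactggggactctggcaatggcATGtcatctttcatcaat
Tgtp1: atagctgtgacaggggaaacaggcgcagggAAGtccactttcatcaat
Tgtp2: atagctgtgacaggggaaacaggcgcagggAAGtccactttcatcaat
Ifi47: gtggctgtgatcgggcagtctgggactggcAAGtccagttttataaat

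The shown stretch is identical in Tgtp1 and Tgtp2, whose whole coding sequences differed at 4 of 1245 bases (99.7% identity). Of the 100-base stretches of the longest Tgtp1 transcript, 80.0% occur in that of Tgtp2, so the division of reads between these near-identical copies is uncertain. Between the other pairs of members, identity over aligned coding bases was 51.4% to 71.5%, the highest being that of Irgm2 with Igtp.

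Promoters are shown because both kinds of interferon signal converge there. The RefSeq table (GRCm38.p6) held a promoter for 6 of the 7 members, each of 300 bases, and the 100 bases before the start site are printed 5′ to 3′ on the gene's strand. Matches to GAS (TTCNNNGAA) and to an ISRE-like motif (GAAA, any 2 bases, GAAA), searched on both strands, are in capitals, and where 2 ISRE-like matches overlap they form 1 run.
Irgm1, chr11:48871421-48871520, minus strand: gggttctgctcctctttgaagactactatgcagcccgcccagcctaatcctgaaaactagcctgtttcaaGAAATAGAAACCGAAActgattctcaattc
Irgm2, chr11:58214877-58214976, plus strand: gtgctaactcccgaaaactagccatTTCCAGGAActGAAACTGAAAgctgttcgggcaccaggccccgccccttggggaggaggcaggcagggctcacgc
Igtp, chr11:58199456-58199555, plus strand: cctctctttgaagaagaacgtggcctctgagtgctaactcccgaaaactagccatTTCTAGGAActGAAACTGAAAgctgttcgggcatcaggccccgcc
Tgtp1, chr11:48992247-48992346, minus strand: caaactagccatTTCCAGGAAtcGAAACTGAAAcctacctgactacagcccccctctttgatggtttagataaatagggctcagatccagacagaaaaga
Tgtp2, chr11:49064213-49064312, minus strand: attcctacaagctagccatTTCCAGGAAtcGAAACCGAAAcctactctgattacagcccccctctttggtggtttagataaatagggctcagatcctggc
Ifi47, chr11:49076487-49076586, plus strand: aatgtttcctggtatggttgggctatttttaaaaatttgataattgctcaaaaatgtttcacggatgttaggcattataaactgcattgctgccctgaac

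Irgm2, Igtp, Tgtp1 and Tgtp2 each held a GAS match followed after 2 bases by an ISRE-like match, Irgm1 held 2 overlapping ISRE-like matches and no GAS match, and the Ifi47 window held neither. Thus 4 of 6 member promoters held a GAS match and 5 of 6 an ISRE-like match, where 8.30% and 3.44% of all 32851 promoters of the table did so, and 4 of 6 held both, where 0.454% did. These promoters are not independent of each other. Those of Tgtp1 and Tgtp2 were 77.5% identical over 276 aligned bases, and the printed windows of Irgm2 and Igtp are nearly the same around the motifs. The counts therefore overstate the contrast with all promoters. A match is a run of letters and not a measured binding site, and the absence of one in Ifi47 says only that these letters are not in its window.

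The libraries held 34765330 to 38673663 counted reads in ZQD and 32065288 to 49914394 in control. Each member had 1220 to 27563 reads in every library, so counting error was small beside the spread between libraries, which the intervals given here describe. Mitochondrially encoded genes took 8.78% to 11.1% of reads in ZQD and 5.18% to 7.96% in control; scaled without those genes, 0 members passed and Igtp changed sign. The 6 members with a printed sequence lie on chromosome 11, Irgm1, Tgtp1 and Tgtp2 on the minus strand, and Iigp1 lies on chromosome 18. In bulk tissue, fewer cells of a type and less RNA per cell cannot be told apart.

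No IRG member passed the test between ZQD and control tumours. The summed FPKM of the 7 genes was 356.0 ± 36.7 in ZQD (SD, n = 3) and 385.7 ± 101.8 in control (SD, n = 4). Fold changes, as ZQD minus control on log2(FPKM + 0.5), ran from -0.29 for Irgm2 to 0.19 for Iigp1, and 6 of 7 were below 0, as were 58.2% of all genes tested. The median over the members was -0.17, beside -0.043 over all genes.

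Among the regulatory members, Irgm1, which controls autophagy and vacuole traffic in mouse macrophages, lay at 50.9, 44.3 and 42.0 FPKM in ZQD 1 to 3, against 40.0, 60.0, 47.0 and 71.3 FPKM in control 1 to 4. All 3 ZQD values lay inside the control range, with control 1 below them and control 2 and control 4 above them. Its log2 fold change was -0.22 (SE 0.187, 95% interval -0.65 to 0.20, limma adjusted p = 0.594). Irgm2, a Golgi-associated regulator in mouse cells, was at 62.2, 53.9 and 55.3 FPKM in ZQD and at 51.7, 81.2, 60.1 and 93.4 FPKM in control. Its groups overlapped in the same way, and its log2 fold change of -0.29 (SE 0.193, interval -0.73 to 0.15, limma adjusted p = 0.498) was the lowest of the 7. Igtp, found at the endoplasmic reticulum and on lipid droplets, was at 84.9, 75.3 and 68.9 FPKM in ZQD and at 54.3, 86.3, 67.6 and 116.8 FPKM in control. The ZQD values sat in the middle of a control range that spanned 2.15-fold, with a log2 fold change of -0.035 (SE 0.232, interval -0.56 to 0.49, limma adjusted p = 0.956). Its sign turned to 0.16 without control 4, to 0.013 without control 2 and to 0.036 without ZQD 3, and several scalings turned it as well, so no direction is given for Igtp.

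Among the effectors, Iigp1, which encodes Irga6, a GTPase that gathers on the parasite vacuole in mouse cells, had the highest level. It was at 111.5, 100.3 and 91.8 FPKM in ZQD and at 65.0, 86.2, 90.4 and 120.2 FPKM in control. Each ZQD value was above 3 of the 4 controls and below control 4, and Iigp1 was the 1 member with a fold change above 0 (log2 0.19, SE 0.185, interval -0.23 to 0.61, limma adjusted p = 0.653). Without control 4 its groups did not overlap and the log2 fold change was 0.34, which did not pass either. Control 4 was the 1 control above the ZQD values, so leaving it out removes the overlap by construction.

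Tgtp1 and Tgtp2 encode the Irgb6 GTPase, among the first of the family to load onto the vacuole in mouse cells. Tgtp1 lay at 15.3, 12.05 and 11.6 FPKM in ZQD and at 10.2, 14.7, 11.9 and 21.4 FPKM in control. Tgtp2 lay at 39.3, 29.2 and 32.4 FPKM in ZQD and at 29.7, 38.3, 32.8 and 53.0 FPKM in control. The copies followed each other, with ZQD 1 the highest ZQD library and control 4 the highest of all for both genes. The division of reads between them is uncertain, so this likeness need not be that of separate genes. Tgtp1 took 25.4% to 29.2% of their summed FPKM in every library, and the sum was 46.6 ± 7.07 FPKM in ZQD (SD, n = 3) and 53.0 ± 15.3 FPKM in control (SD, n = 4; two-sided exact permutation p = 0.657). The log2 fold changes were -0.11 for Tgtp1 (SE 0.230, interval -0.64 to 0.41) and -0.17 for Tgtp2 (SE 0.193, interval -0.61 to 0.28), with limma adjusted p of 0.842 and 0.713. Without control 4 these became 0.085 and -0.0019.

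Ifi47, which encodes the GKS member Irgd, was at 33.7, 25.5 and 27.5 FPKM in ZQD and at 28.7, 38.4, 30.6 and 41.5 FPKM in control. ZQD 2 and ZQD 3 lay below every control and ZQD 1 lay inside the control range, which made Ifi47 the member nearest to a separation of the groups. Its log2 fold change was -0.26 (SE 0.152, interval -0.61 to 0.088, limma adjusted p = 0.441). Without ZQD 1 the groups of Ifi47 did not overlap and the log2 fold change was -0.37, again without passing. ZQD 1 was the 1 ZQD value inside the control range, so here too the lack of overlap follows from the library left out. The share of all genes without overlap in such smaller sets is not given here.

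**Figure D1:**
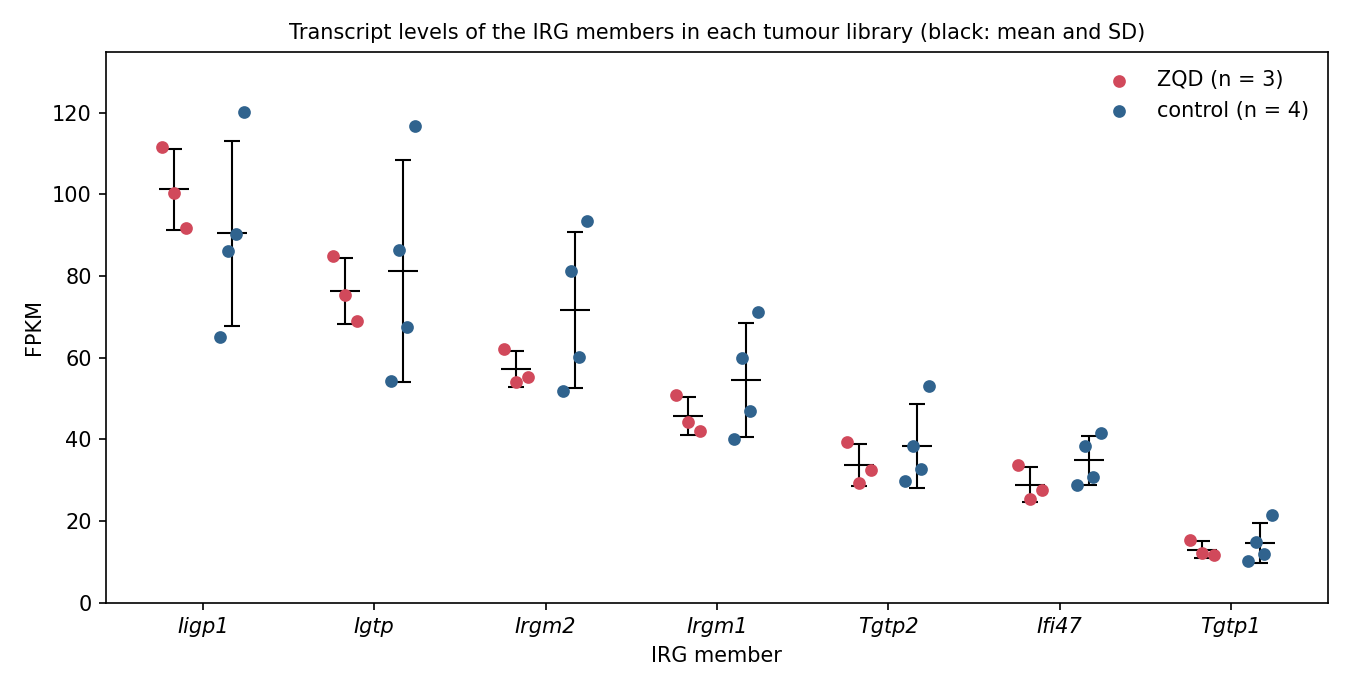
FPKM of each IRG member (x axis, by mean level) in the 3 ZQD and 4 control libraries; points are libraries, black bars the mean and SD. The groups overlap for all 7 genes, and 18 of the 21 ZQD values lie inside the control range.

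Over the family, 0 of 7 members passed at a limma adjusted p under 0.05, where 0.0% of the 14838 genes tested did so. At an unadjusted p under 0.05, 0 of 7 passed, beside 5.21% of all genes in the higher and 10.3% in the lower direction; with median-of-ratios scaling that split was 1097 genes higher and 1082 lower. edgeR also called 0 members, of 0.0% of genes, and DESeq2 0 members, of 3.85% of genes. Groups did not overlap for 0 of 7 members, beside 15.2% of all genes (5.35% higher and 9.84% lower in ZQD). Two-sided exact permutation p over all 35 splits was 0.2 for Ifi47 and 0.343 to 0.943 for the other members. The intervals reach from a log2 of -0.73 to 0.61, so a change to 0.604 times or to 1.53 times the control level lies within the widest bounds for single members.

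**Figure D2:**
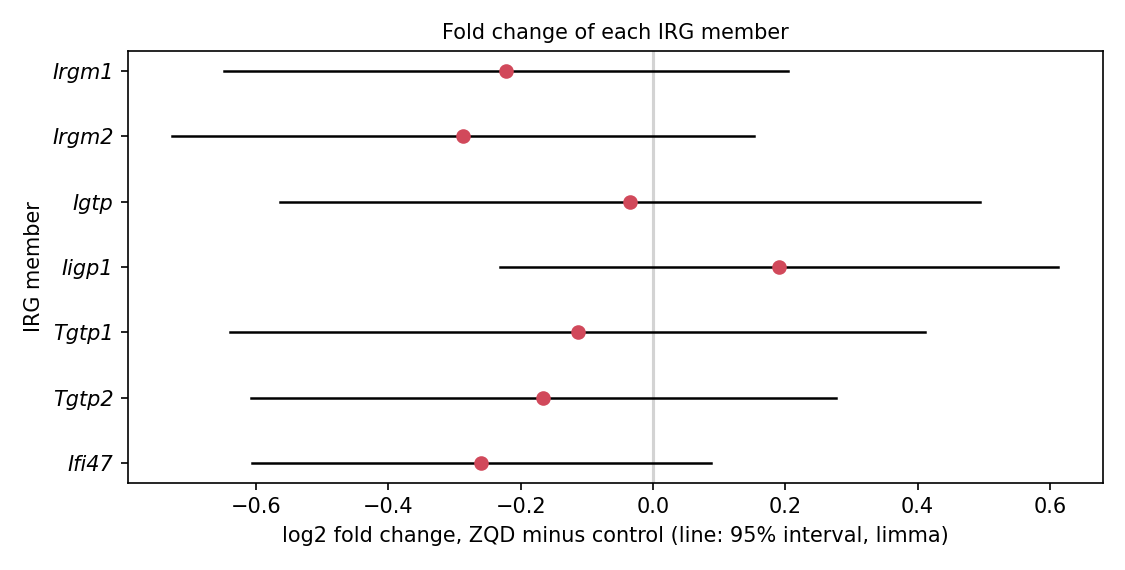
Log2 fold change of each IRG member, ZQD minus control (x axis, points), with the 95% interval from limma (lines). Every interval includes 0, and Iigp1 has its point at 0.19, the only one above 0.

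The spread of the family lay within groups and was shared by its members. In control, control 1 was the lowest and control 4 the highest of the 4 libraries for 7 of 7 members, an order that 7.39% of all genes had. Control 4 was also the highest of all 7 libraries for 7 of 7 members, beside 17.6% of all genes. The ratio of the highest to the lowest control was 1.44 for Ifi47 and 1.78 to 2.15 for the other members, and among ZQD libraries the ratio was 1.15 to 1.35. In ZQD, ZQD 1 was the highest library for each member. Across the 7 libraries the log2 values of 2 members had a Pearson r of 0.41 to 0.99 over 21 pairs (median 0.91), highest for Irgm1 with Irgm2 and lowest for Iigp1 with Ifi47. These are descriptions over 7 points that share libraries and total counts, and the division of reads between Tgtp1 and Tgtp2 is uncertain.

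**Figure D3:**
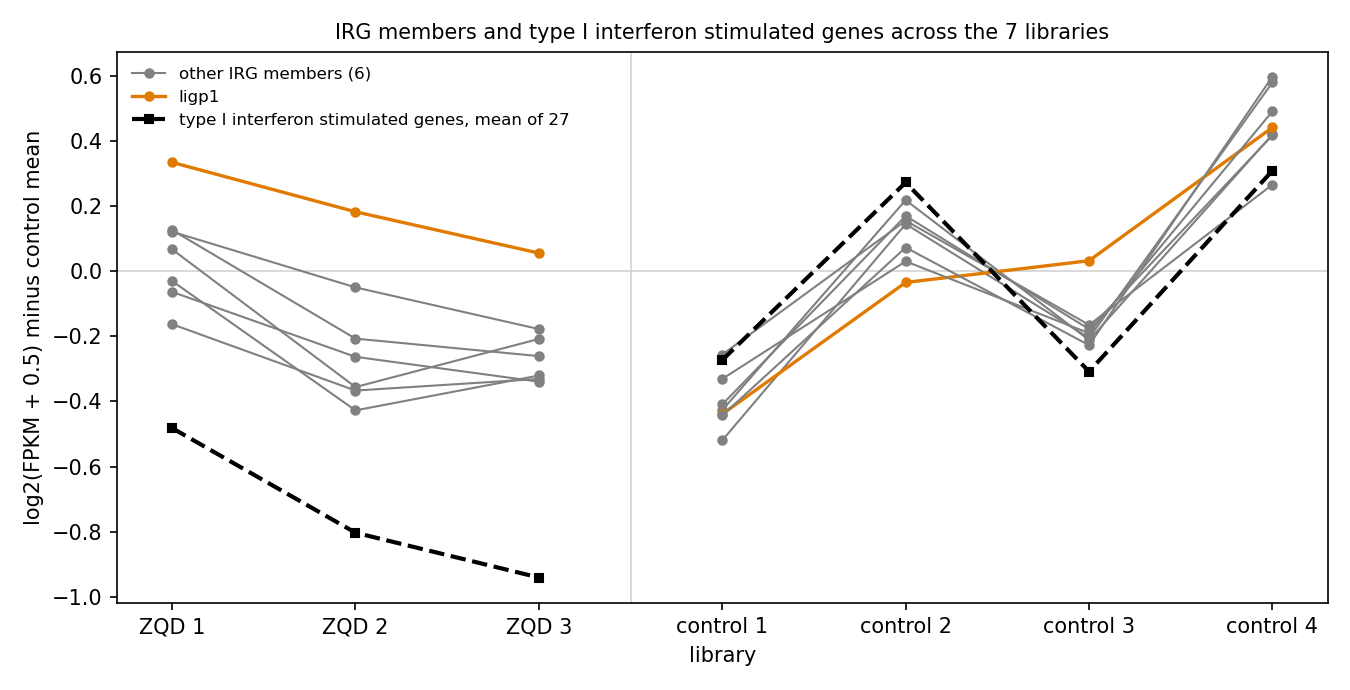
Log2(FPKM + 0.5) minus the control mean (y axis) in each library (x axis); grey and orange lines each join 1 member's values within a group, black dashes the mean of 27 type I interferon stimulated genes, and the order of libraries has no meaning. Members lie high in control 4 and low in control 1, and in ZQD they lie between -0.43 and 0.33 while the type I mean lies between -0.94 and -0.48.

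The levels kept nearly the same order in all libraries. Over the 7 libraries the mean was 95.1 FPKM for Iigp1, 79.2 for Igtp, 65.4 for Irgm2, 50.8 for Irgm1, 36.4 for Tgtp2, 32.3 for Ifi47 and 13.9 for Tgtp1. Iigp1 placed above 97.7% of the genes tested and Tgtp1 above 75.3%. Neighbours in that order were separated in 7 of 7 libraries except for Iigp1 over Igtp and Tgtp2 over Ifi47, each higher in 6 of 7, with lowest ratios of 0.9995 and 0.9989. FPKM divides by gene length, here the length of all annotated exons of a gene joined, so these levels can be set side by side only roughly. The Tgtp1 and Tgtp2 values depend on how shared reads were assigned. Irgm2, Igtp, Tgtp1 and Ifi47 also share exon bases with other genes, and how such reads were counted is not given.

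The level of Iigp1 relative to the other members was higher in ZQD without overlap for 4 of them and overlapped for Igtp and Tgtp1. Within a library the FPKM ratio of Iigp1 to Irgm1 was 2.19, 2.27 and 2.19 in ZQD, against 1.63, 1.44, 1.92 and 1.69 in control, so every ZQD library was above every control. The ratio of Iigp1 to Irgm2 was 1.79, 1.86 and 1.66 in ZQD and 1.26, 1.06, 1.503 and 1.29 in control. That of Iigp1 to Ifi47 was 3.31, 3.94 and 3.34 in ZQD and 2.26, 2.25, 2.95 and 2.90 in control, and the ratio to Tgtp2 did not overlap either. A ratio higher in ZQD without overlap, found for 4 of the 6 other members, held for 6.13% of all genes as the denominator. The 6 denominators move together, with a Pearson r from 0.77 (Igtp with Ifi47) to 0.99 (Irgm1 with Irgm2). The 4 ratios are therefore not separate observations to set against that share. A ratio within a library shows unequal levels and not which gene moved; it does not depend on the scaling of the library, and these ratios were formed after the member values were seen, so they are given without a test.

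**Figure D4:**
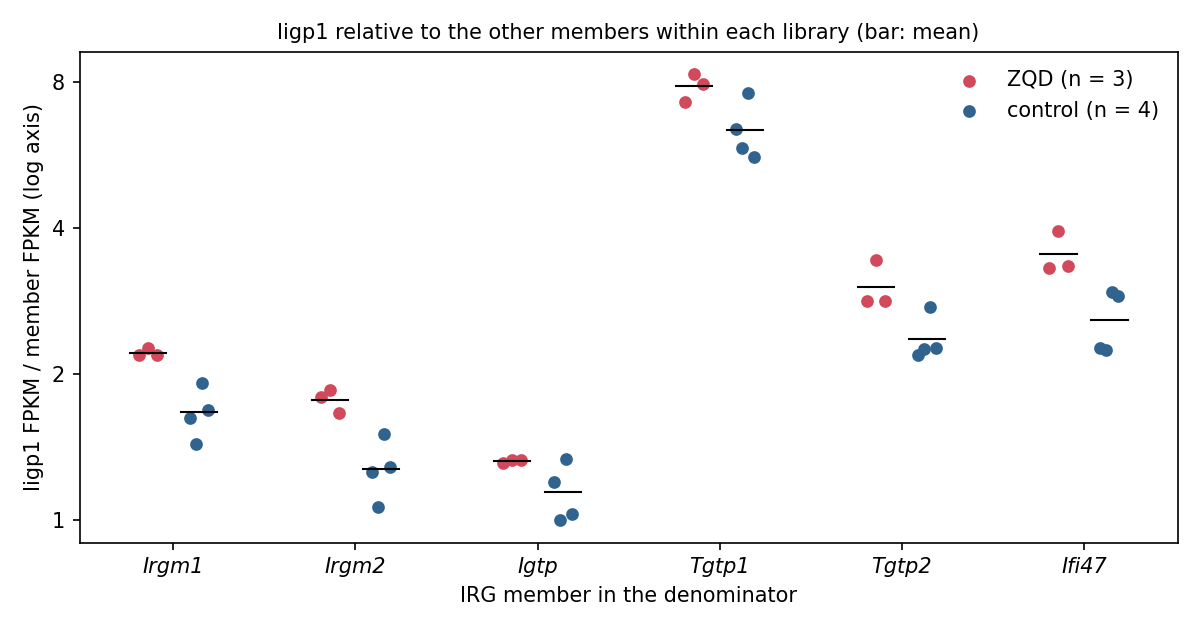
FPKM of Iigp1 divided by that of each other IRG member within each library (y axis, log scale); points are libraries, bars group means. Over Irgm1, Irgm2, Tgtp2 and Ifi47 the 3 ZQD libraries lie above the 4 controls, and over Igtp and Tgtp1 the groups overlap.

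Other genes of the family, listed by symbol, also gave no call. Of 16 listed symbols, 10 were found and 9 passed the filter. The list held alternative names, among them both Gm12250 and Irgb10, so a symbol that was not found need not be a gene missing from the files. Of the 9 genes, 4 were lower and 5 higher in ZQD, and 0 passed in limma at either an adjusted or an unadjusted p under 0.05. Of all genes, 0.0% passed at the adjusted threshold, and 5.21% (higher) and 10.3% (lower) at the unadjusted one. Gm12250, which RefSeq also names Irgb10, was at 33.8 ± 5.02 FPKM in ZQD (SD, n = 3) and 42.6 ± 15.6 FPKM in control (SD, n = 4). Gm4951 was at 18.3 ± 3.72 FPKM in ZQD and 21.7 ± 4.32 FPKM in control, and Gm5431 at 2.00 ± 0.808 FPKM in ZQD and 2.62 ± 0.341 FPKM in control. Irgc1, known for its expression in testis, did not pass the filter, and Irgq was at 4.21 ± 0.658 FPKM in ZQD and 3.90 ± 0.913 FPKM in control.

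Among 12699 genes with a mean FPKM of at least 1, the 8 whose pattern over the 7 libraries was most like the standardised mean of the members were Gm12250 (Pearson r = 0.99), Gbp9 (0.99), Hp1bp3 (0.98), Gm12185 (0.96), Snu13 (0.96), Nedd1 (0.96), Psma6 (0.95) and Abcf2 (0.94). Gm12250, Gm12185 and Gbp9 are interferon-inducible GTPase genes of the IRG and guanylate-binding families, and Gm12185 shares exon bases with Tgtp1 in the annotation. The gene most like Ifi47 was Parp9 (r = 0.99) and the gene most like Iigp1 was Hnrnpa3 (r = 0.98). All are descriptions over 7 libraries, chosen as the highest of 12699 values.

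The interferon pathway above the family was described from lists of ligands, receptors and signalling genes. Ifng, the interferon gamma gene and the main inducer of the family, was at 1.99, 1.22 and 0.977 FPKM in ZQD and at 0.743, 1.63, 1.35 and 1.22 FPKM in control. The groups overlapped (log2 fold change 0.12, SE 0.235, limma adjusted p = 0.837), and the highest value was in ZQD 1 and the lowest in control 1. Control 4, the highest library for each IRG member, lay below control 2 and control 3 for Ifng. The Pearson r of Ifng with the member mean was 0.53, and Ifng had at most 95 reads in a library. Type I interferon genes were near 0: Ifnb1 was at 0.217, 0.0690 and 0.0767 FPKM in ZQD and at 0.267, 0, 0.166 and 0.474 FPKM in control, below the filter. The receptor chain gene Ifngr1 was at 32.4 ± 3.39 FPKM in ZQD and 24.3 ± 4.66 FPKM in control without overlap (log2 fold change 0.42, limma adjusted p = 0.28), and Ifngr2 was at 16.9 ± 1.55 FPKM in ZQD and 16.2 ± 3.49 FPKM in control.

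Of 18 signalling genes, 13 were lower and 5 higher in ZQD; 0 passed in limma, and DESeq2 called 4, all lower (Irf9, Irf7, Usp18 and Socs1), beside 1.65% of all genes. Irf1, a transcription factor induced through GAS elements, was at 39.6 ± 3.47 FPKM in ZQD and 45.9 ± 3.81 FPKM in control, with overlap. Stat2, which acts in type I interferon signalling, was at 45.1 ± 4.73 FPKM in ZQD and 62.5 ± 12.03 FPKM in control, and Irf9 at 13.2 ± 1.67 FPKM in ZQD and 18.5 ± 2.30 FPKM in control. Irf7, the amplifier of type I interferon production, was at 19.4 ± 4.49 FPKM in ZQD and 37.3 ± 8.55 FPKM in control, and the feedback gene Usp18 at 6.89 ± 1.92 FPKM in ZQD and 15.3 ± 4.62 FPKM in control. Socs1, a feedback inhibitor of cytokine signalling, was at 3.72 ± 0.390 FPKM in ZQD and 5.59 ± 0.719 FPKM in control (DESeq2 adjusted p = 0.0209, limma adjusted p = 0.155). For Irf9, Irf7, Usp18 and Socs1 all ZQD libraries lay below all controls. Over the whole list, groups did not overlap for 6 of 18 genes lower and 1 higher in ZQD, beside 9.84% and 5.35% of all genes. For Irf9, Irf7 and Usp18 the DESeq2 adjusted p was 0.0429, 0.00171 and 0.000976, and the limma adjusted p was 0.177, 0.154 and 0.154.

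Type I interferon stimulated genes, listed with earlier results of these data known, had lower values for 27 of 27 genes, with a median log2 fold change of -0.77. Their groups did not overlap in the lower direction for 18 of 27, beside 9.84% of all genes, and DESeq2 called 16 in that direction, beside 1.65% of all genes, while limma called 0. Against the mean of that list within the same library, each IRG member was higher in ZQD, by 0.46 (Irgm2) to 0.93 (Iigp1) on the log2 scale. The values of ZQD did not overlap those of control for 7 of 7 members. For Iigp1 the difference from the list was 2.36, 2.53 and 2.54 in ZQD and 1.38, 1.24, 1.89 and 1.68 in control. The same separation from the type I list held for 55.4% of all genes tested, so it is no property of the family. The list was known to be lower and the difference was formed after the data were seen, so it is given without a test.

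Interferon gamma targets outside the GTPases were mixed, with 12 of 22 lower and 10 higher, a median log2 fold change of -0.032 and 0 calls in limma. DESeq2 called 1 lower (Cxcl10) and 2 higher (Cxcl9 and Ubd), beside 1.65% and 2.2% of all genes in those directions. The chemokine gene Cxcl9 was at 184, 145 and 157 FPKM in ZQD and at 79.6, 77.9, 126 and 84.1 FPKM in control, without overlap (log2 fold change 0.84, limma adjusted p = 0.154, DESeq2 adjusted p = 0.000409). Ubd, a ubiquitin-like modifier, was at 20.7 ± 5.86 FPKM in ZQD and 9.08 ± 2.42 FPKM in control without overlap (log2 fold change 1.14, limma adjusted p = 0.154, DESeq2 adjusted p = 0.000229). Cxcl10 lay the other way, at 36.2 ± 2.55 FPKM in ZQD and 62.3 ± 16.4 FPKM in control without overlap (log2 fold change -0.74, limma adjusted p = 0.179, DESeq2 adjusted p = 0.0107). Guanylate-binding proteins, GTPases that act on the same vacuoles, were lower for 6 of 11 and higher for 5, with a median of -0.066. Gbp2b was the member of that list with the largest difference, at 4.93 ± 1.78 FPKM in ZQD and 1.37 ± 0.138 FPKM in control without overlap (log2 fold change 1.49, limma adjusted p = 0.126), and it was the 1 gene of the list that DESeq2 called (adjusted p = 3.02e-11). Gbp2 and Gbp3 overlapped between groups, at 238.6 ± 28.8 and 71.6 ± 7.38 FPKM in ZQD and at 215.2 ± 54.9 and 76.2 ± 17.5 FPKM in control. Groups did not overlap for 1 lower and 2 higher of the 22 gamma targets, beside 9.84% and 5.35% of all genes. For the 11 guanylate-binding genes these counts were 0 and 1.

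**Figure D5:**
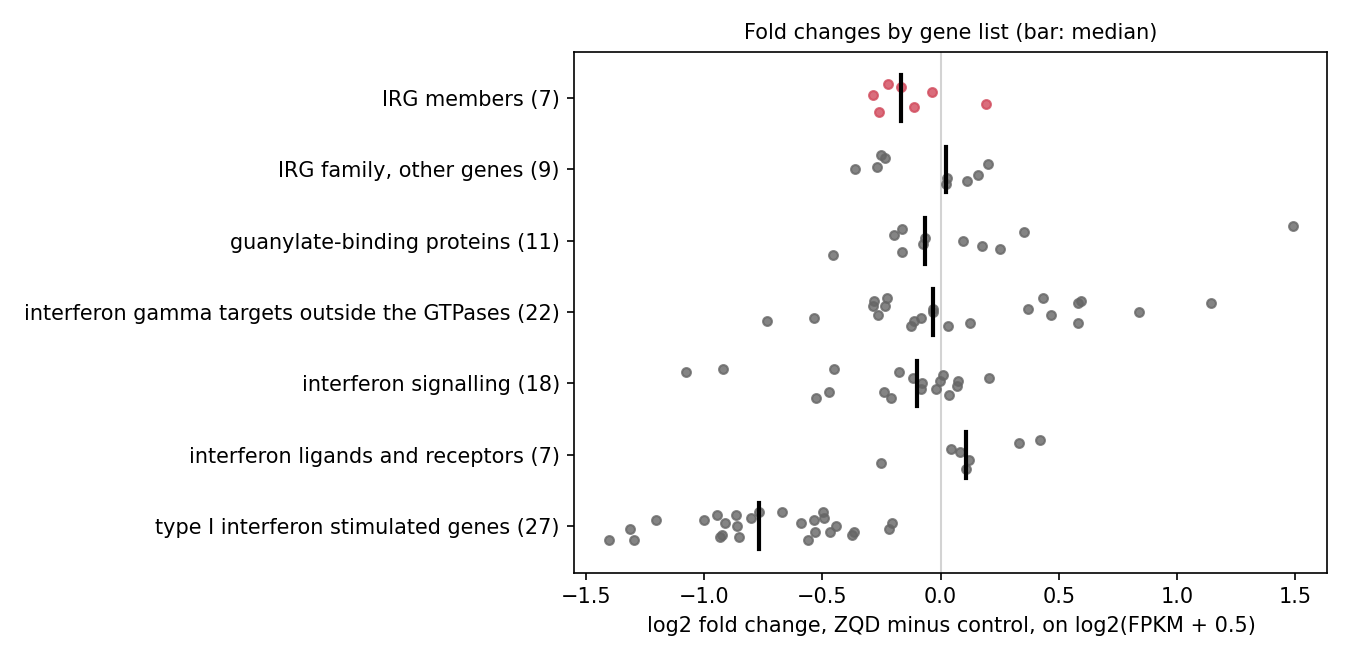
Log2 fold change of each tested gene, ZQD minus control (x axis), by list (y axis, number of genes in brackets); bars are list medians. IRG members (red) lie between -0.29 and 0.19, with a median of -0.17, and the type I interferon stimulated genes have a median of -0.77.

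IRG effectors are loaded onto vacuoles with the help of the ubiquitin-like conjugation machinery of autophagy. Of its 13 listed genes, 8 were lower and 5 higher in ZQD, with a median log2 fold change of -0.074 and 0 calls in limma, edgeR or DESeq2. Sqstm1, the autophagy receptor p62, was at 123.3 ± 15.3 FPKM in ZQD and 163.1 ± 24.0 FPKM in control without overlap (log2 fold change -0.40, limma adjusted p = 0.247). It was the 1 gene of these 13 that was lower without overlap, beside 9.84% of all genes, and 0 were higher without overlap. Atg3 and Atg5, enzymes of the conjugation step, were at 25.3 ± 2.14 and 18.1 ± 1.37 FPKM in ZQD and at 20.5 ± 2.78 and 16.1 ± 0.769 FPKM in control.

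Markers of cells that make or answer interferon gamma were also listed. The mean log2(FPKM + 0.5) of 13 macrophage and monocyte markers ran from 4.86 to 5.21 in ZQD and from 4.28 to 4.71 in control, with 12 of 13 genes higher. The mean of 12 T cell markers ran from 1.38 to 1.67 in ZQD and from 0.904 to 1.48 in control, with 12 of 12 higher, and that of 8 NK cell and cytotoxic markers from 2.66 to 2.89 in ZQD and from 2.38 to 2.72 in control, with 6 of 8 higher. Neutrophil markers, the cells in the series title, had 7 of 7 genes higher, with a mean of 1.11 to 2.59 in ZQD and 0.880 to 1.63 in control. In limma 0 genes of these 4 lists passed. DESeq2 called 3 macrophage and monocyte markers, 1 T cell marker, 2 NK cell and cytotoxic markers and 1 neutrophil marker, all higher in ZQD, beside 2.2% of all genes. Groups did not overlap in the higher direction for 4, 1, 3 and 1 genes of these lists in the same order, beside 5.35% of all genes. Over the 7 libraries the means of these lists had a Pearson r with the member mean of -0.68, -0.72, 0.21 and -0.63, again in that order. The part of these cells in the member values was not tested. Dendritic cell, B cell, endothelial, fibroblast and blood markers overlapped between groups in their mean, with 0 genes past the threshold.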

How the data were processed

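Bulk tumour mRNA of 7 libraries was analysed. FPKM values of every library were deposited by the authors, who also deposited gene counts of control 1 and control 2. HISAT2, featureCounts, Subread and DESeq2 are named in the submitters' processing notes; versions, roles, build and annotation: not given in the sources used here. In the 2 libraries with counts, FPKM equals the count divided by gene length and total count. The lengths so obtained (27421 of 32212 genes) gave whole reads within 0.05 in all libraries, and for all 7 members they equal the union exon length in GENCODE M21, as they do for 98.2% of the genes compared. In that annotation Irgm2 and Igtp share 162 exon bases, Tgtp1 shares 223 with Gm12185 and Ifi47 shares 217 with Olfr56 and Gm12188; how such reads were counted, and the strand setting, are not given.

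Symbols matched 98.0% of identifiers. The test was limma 3.58.1 in R 4.3.3 on log2(FPKM + 0.5), with trend, over the 14838 genes that reached FPKM 0.5 in 3 or more libraries, two-sided, Benjamini-Hochberg adjusted over all genes, threshold 0.05. The rebuilt reads of 14832 genes were also tested with the quasi-likelihood test of edgeR 4.0.16 and with DESeq2 1.42.0; DESeq2 gave no adjusted p for 1733. Members were also tested by exact permutation. The methods were tested on simulated data with set changes larger than the fold change of any member. That check does not cover changes as small as those of the members. Alternatives covered pseudocount, filter, scaling, weights, trend, replicate number as a block, and each library left out. Members and lists were chosen with earlier results of these data known. Named genes are the members, the 3 of smallest p and 2 most abundant of a list, any gene of the ligand, receptor and signalling lists, and the most correlated genes; Irgc1, Irgq and Gm12185 among the other IRG genes, the epithelial genes, and all genes and ratios in the closing observations were chosen after their values were seen. Ratios between members and the difference from the type I list were added after seeing the data. Figures used matplotlib 3.10.9. The values of 1 gene of the signalling list are not reported here.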

Additional observations from a re-analysis of the deposited data

Results flagged for a closer look

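The sets of control values examined numbered 26, the 7 members and 19 lists, the members' own list included. Of these, 1 had a library far from the other controls: the skeletal muscle markers. Their mean log2(FPKM + 0.5) was 2.77 in control 1, against 0.049, 0.30 and -0.013 in control 2 to 4, a gap of 0.887 of the range. Chance flags about 1 in 20 such sets. The muscle mean rested on the 3 of 7 listed genes that passed the filter, and in ZQD 1 to 3 it was 1.56, 0.23 and 1.37. Control 1 was also the lowest control for each IRG member, while ZQD 1 was the highest ZQD library for each. The part of muscle tissue in the member values was not tested. No IRG member was flagged.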

How the results depend on the processing

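Genes past the threshold numbered 0 in the limma fit and 0 under each alternative except DESeq2 (504) and the replicate number as a block (1). No IRG member passed under any alternative run. Irgm1, Irgm2, Iigp1, Tgtp2 and Ifi47 kept the sign of their fold change throughout. Igtp (log2 fold change -0.035) was at 0.0082 with TMM scaling, 0.0091 with median-of-ratios scaling, 0.019 with a scaling without mitochondrially encoded genes, 0.043 with array weights and 0.16 with the replicate block. Tgtp1 was at 0.085 with the replicate block. With 1 library left out, Igtp ran from -0.21 to 0.16, Tgtp1 from -0.26 to 0.085, Irgm1 from -0.36 to -0.083, Irgm2 from -0.43 to -0.15, Iigp1 from 0.044 to 0.34, Tgtp2 from -0.28 to -0.0019 and Ifi47 from -0.37 to -0.17. Control 1 and control 4 set most of these bounds. Members whose groups did not overlap numbered 0 to 1 with a library left out, the 1 being a gene whose overlap rested on that library alone. The Iigp1 ratio separated the groups for 4 to 6 of 6 members. The same numbers share only a number: deviations of same-numbered libraries correlated at 0.25, 0.0998 and -0.15. Since control 4 has no partner, the blocked values equal those without it. With 3 and 4 libraries, the width of the intervals limits what can be seen, not read depth.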

Other observations

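A few genes near the family had patterns of their own. F830016B08Rik, an IRG gene, was at 7.65 FPKM in ZQD 1 and 7.59 in control 3, and at 4.18 and 3.55 FPKM in ZQD 2 and ZQD 3 and 3.50, 3.49 and 3.67 FPKM in control 1, control 2 and control 4. Ifnlr1, a chain of the interferon lambda receptor, was at 0.564 FPKM in ZQD 1, 0.771 in control 1 and 0.626 in control 3, and at 0.0495 to 0.194 FPKM in the other 4 libraries. Ifnar2, a chain of the type I interferon receptor, ran opposite to the family, at 8.75, 9.30 and 9.58 FPKM in ZQD and 9.74, 8.67, 9.25 and 8.06 FPKM in control, with a Pearson r of -0.99 with the member mean over 7 libraries, and Irgq had an r of -0.78. These points share libraries and total counts, and they were picked after the values were seen.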
